A study of Mus musculus with 16 samples.

Results

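The interferon-stimulated genes and immunity-related GTPases described here are 35 mouse genes, taken by name from a table of read counts that holds 24562 entries once 1 row is kept per gene, and all 35 had a row. They were followed in 16 RNA sequencing libraries from mice of the ApoE-/- strain, which lack apolipoprotein E and are prone to atherosclerosis. B1b cells, innate-like B lymphocytes sorted from peritoneal lavage by low B220, high IgM and low CD5, gave 3 wild-type libraries and 3 labelled cre. Whole aortas gave 5 wild-type libraries and 5 labelled cre. In the series' design text the animals labelled cre lack CD40, a costimulatory receptor, in B cells only, so the other cells of a cre aorta keep the gene. The sources used here do not give the promoter that drives the recombinase or the age of the mice. Every group carries the ApoE deficiency.

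B1b libraries held 6815829 to 9911226 counts each, and aorta libraries 1645926 to 7300894. Levels are given as CPM, the unit that brings all libraries to the same total, after TMM scaling over all 16 libraries. Cd40 stood at 39.2, 34.4 and 37.6 CPM in wild-type B1b cells and at 30.7, 29.5 and 38.4 CPM in cre B1b cells, so the groups overlapped. The altered part of Cd40 is not in the labels, and this count does not check them. The summed level of 6 B cell markers was 6969 to 7425 CPM in wild-type and 6545 to 6761 CPM in cre B1b cells, so these sums did not overlap, and 1 of the 6 was called lower in cre. In aortas the sum was 99.4 to 189 CPM in wild type and 152 to 236 CPM in cre, and 1 of the 5 that could be tested was called higher in cre. The summed level of 5 smooth muscle markers was 11.7 to 17.03 CPM in B1b cells and 8149 to 21960 CPM in aortas, and no marker of either list was at 0 counts in a whole group. The labels name no batch. Nothing in them ties a library to its own mouse, and the spread behind each p-value may be partly technical.

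Type I interferons bind the receptor IFNAR1-IFNAR2, whose kinases JAK1 and TYK2 activate the factor ISGF3. This complex, which includes STAT2 and IRF9, binds the interferon-stimulated response element of antiviral genes. Interferon gamma acts through a separate receptor and the gamma-activated site, and it strongly induces the immunity-related GTPases. In atherosclerosis, interferon responses have been described mainly in lesional macrophages, T cells and vascular cells.

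The promoters show what many of the members share. The RefSeq promoter table (GRCm38.p6, 250 bases before to 50 bases after each start) had an entry for 25 of the 35 members. The core of the interferon-stimulated response element was searched as GAAA, then any 2 bases, then GAAA, and on the other strand as TTTC, any 2 bases, TTTC. It was present in 15 of the 25 members (60.0%), against 3.99% of the 27025 genes in the table. At least 2 matches were found in 8 of the 25 members, against 0.266% of all genes. The gamma-activated site, searched as TTCNNNGAA, which reads alike on both strands, was present in 7 of the 25 members (28.0%) against 9.55% of all genes. A match is a run of letters and not a measured binding site. The 6 windows that follow are those of the 3 members with a match that had the largest log2 difference in each direction between wild-type B1b cells and aortas, leaving out the near-identical pairs Ifit3 with Ifit3b and Oas1a with Oas1g. Each is given 5′ to 3′ on the gene's strand, upstream of the start, with the matches in capitals. The first 3 belong to genes that were higher in aortas, and the last 3 to genes that were higher in B1b cells.
Isg15, chr4:156200835-156200936, minus strand: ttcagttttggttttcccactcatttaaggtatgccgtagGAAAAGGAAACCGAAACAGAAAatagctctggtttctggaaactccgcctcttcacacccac
Rsad2, chr12:26456523-26456612, minus strand: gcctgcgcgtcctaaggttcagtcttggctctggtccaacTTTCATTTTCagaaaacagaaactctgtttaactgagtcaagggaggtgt
Ifit1, chr19:34640745-34640853, plus strand: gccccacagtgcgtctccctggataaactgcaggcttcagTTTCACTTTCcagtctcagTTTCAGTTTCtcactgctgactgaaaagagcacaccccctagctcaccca
Trim30a, chr7:104465194-104465269, minus strand: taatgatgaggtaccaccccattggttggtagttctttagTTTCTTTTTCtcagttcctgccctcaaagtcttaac
Oas3, chr5:120777685-120777774, minus strand: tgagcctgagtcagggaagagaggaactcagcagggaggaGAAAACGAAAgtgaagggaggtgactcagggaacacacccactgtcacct
Irgm1, chr11:48871421-48871490, minus strand: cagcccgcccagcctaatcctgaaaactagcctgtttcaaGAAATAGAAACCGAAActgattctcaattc

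Isg15 held 3 overlapping matches that run on as 1 stretch, and Irgm1 held 2. Ifit1 held 2 separate matches, and Rsad2, Trim30a and Oas3 held 1 each. The response element core was therefore found on both sides of the tissue comparison. It was present in 9 of the 13 members with a promoter entry that were higher in wild-type aortas. Of the 7 that were higher in wild-type B1b cells, 4 held it. At least 2 matches were found in 7 of those 13 members and in 1 of those 7. The near-identical pairs Ifit3 with Ifit3b and Oas1a with Oas1g are in the count for aortas. Of the 5 immunity-related GTPases only 4 had a promoter entry. Among these the core was found in Irgm1, Irgm2 and Igtp, and the gamma-activated site in Irgm2 and Igtp.

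**Figure D1:**
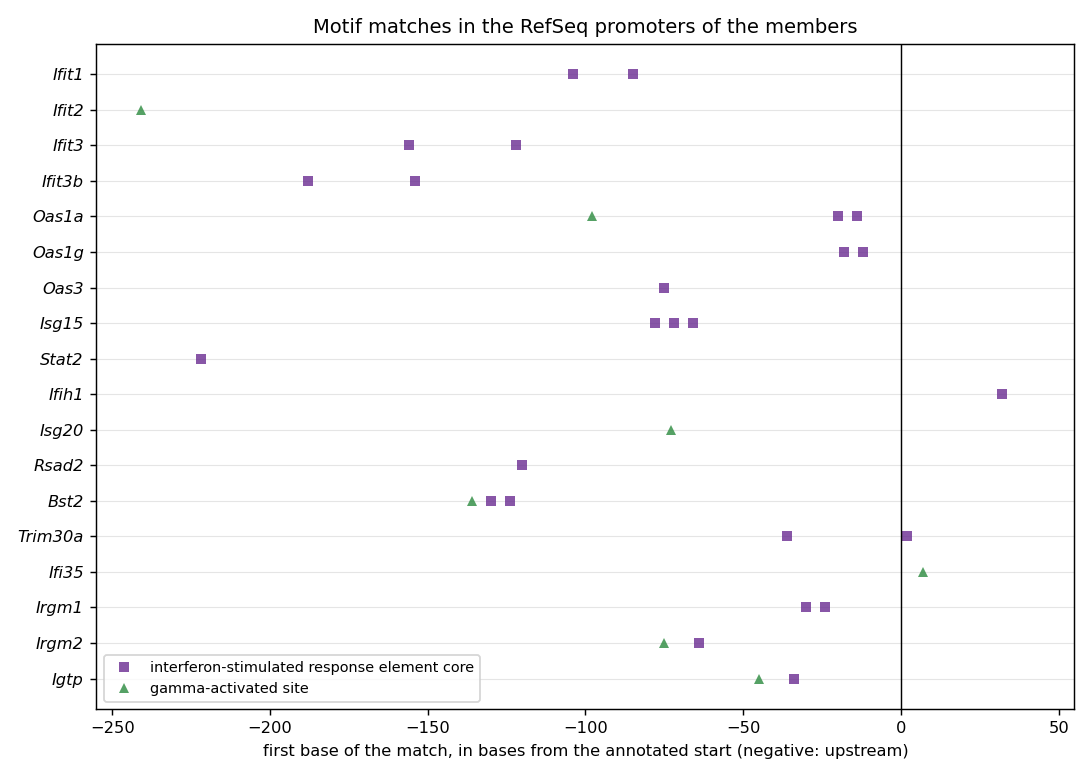
Position of each motif match in the RefSeq promoters of the members, in bases from the annotated start (x axis, negative values upstream), with 1 row per gene that had a match; squares are the interferon-stimulated response element core and triangles the gamma-activated site. Trim30a has 2 annotated starts and 1 match is drawn for each. The Isg15 matches begin 78, 72 and 66 bases upstream, and the 2 matches of Ifit1 begin 104 and 85 bases upstream.

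Several members also lie close together in the genome, with genes that are not members between some of them (coordinates of mm10, the same assembly as GRCm38). The 4 IFIT genes, which encode proteins that bind foreign RNA, lie on chromosome 19 from 34550550 to 34650009. The 4 genes of 2′-5′-oligoadenylate synthetases (Oas1a, Oas1g, Oas2 and Oas3), which activate RNase L on sensing double-stranded RNA, lie on chromosome 5 from 120730333 to 120907544, and the related Oasl1 and Oasl2 lie on the same chromosome from 114896926 to 114937911. Igtp and Irgm2 are neighbours on chromosome 11 from 58199556 to 58222783.

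Per kilobase of transcript, the order of levels differed between the tissues. Ifi27l2a, which encodes a small interferon-induced membrane protein, was the highest of the 35 in both, at 188 ± 12.4 CPM per kb in wild-type B1b cells (SD, n = 3) and 312 ± 95.9 CPM per kb in wild-type aortas (SD, n = 5). That rank rests on the row of highest total, which held 13140 counts in all libraries, where the gene's other row held 3035. Ifi27 lies within the stretch of chromosome 12 given for Ifi27l2a, so some reads may be shared. In B1b cells Ifi27l2a was followed by Trim30a at 57.5 ± 3.54 and Irf9 at 56.5 ± 2.27 CPM per kb, whose ranges overlapped. Ifi35 at 48.0 ± 1.89 and Irgm1 at 44.7 ± 1.33 CPM per kb came next. In aortas Ifi27l2a was followed by Bst2 at 81.3 ± 25.3 and Irf7 at 37.7 ± 19.4 CPM per kb, and from Bst2 to the eighth gene each range overlapped the next. Iigp1 was the lowest of the 35 in wild-type B1b cells, at 0.192 ± 0.169 CPM per kb, and stood at 23.3 ± 13.1 CPM per kb in wild-type aortas.

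**Figure D2:**
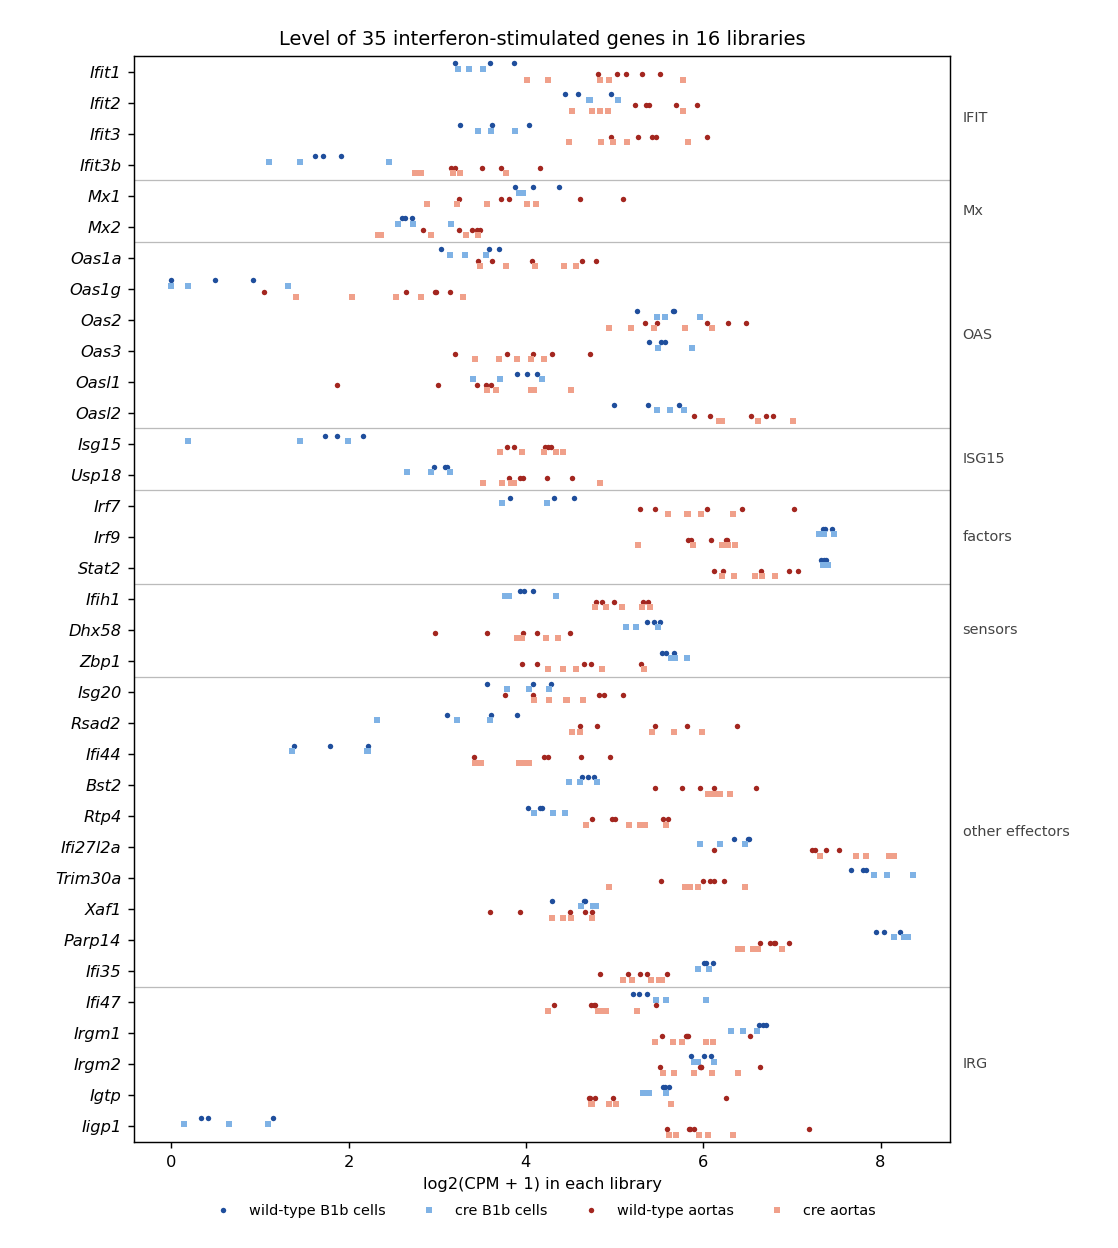
Level of each of the 35 genes as log2(CPM + 1) (x axis) in all 16 libraries, grouped by role (right margin; IRG stands for immunity-related GTPases); circles are wild-type and squares cre libraries, blue B1b cells and red aortas. Iigp1 and Oas1g lie near 0 in B1b cells, while Trim30a, Parp14, Irf9 and Stat2 lie to the right of all aortas there.

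In B1b cells no member passed the test between genotypes. Of the 35 members 33 could be tested, since Oas1g and Iigp1 were too low, and 0 were called, where 0.707% of all 11732 tested genes were (edgeR quasi-likelihood test, adjusted p under 0.05). Of the 33 members 4 had an unadjusted p under 0.05, which 13.3% of all genes did, and the median log2 difference, cre minus wild type, was 0.01 with 16 members below 0, against a median of -0.01 and 50.9% of all genes below 0. The groups did not overlap for 2 members that were higher in cre, against 9.71% of all genes, and for 1 that was lower, against 8.66%. DESeq2 called 1 member and limma-voom 0. The 95% intervals of the log2 difference had a median half-width of 0.33 over the members.

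The member nearest the threshold was Trim30a, a TRIM-family gene whose product restrains Toll-like receptor signalling, on chromosome 7 from 104409025 to 104465193. It stood at 202, 222 and 227 CPM in wild-type B1b cells and at 330, 242 and 269 CPM in cre B1b cells, a log2 difference of 0.38 (SE 0.09, edgeR adjusted p = 0.0654). All 3 cre libraries lay above all 3 wild-type libraries. Trim30a has close paralogs, and some reads may be shared with them. DESeq2 called Trim30a (adjusted p = 0.0159), and so did edgeR without cre replicate 2 (adjusted p = 0.0485). The log2 difference in aortas was -0.15 (adjusted p = 0.816).

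Ifi47, an immunity-related GTPase of the effector type, stood at 40.4, 36.1 and 37.9 CPM in wild-type and at 64.7, 46.7 and 43.1 CPM in cre B1b cells. Its log2 difference was 0.44 (SE 0.14, edgeR adjusted p = 0.152), and the groups did not overlap, with cre replicate 1 well above the rest. Without that library the log2 difference was 0.27. Irgm1, a GTPase that regulates the effector GTPases, stood at 104, 97.9 and 101 CPM in wild-type and at 96.2, 78.8 and 86.2 CPM in cre B1b cells, where all cre libraries lay below all wild-type ones (log2 difference -0.21, SE 0.09, adjusted p = 0.340). Parp14, an ADP-ribosyltransferase, had a log2 difference of 0.18 (adjusted p = 0.356), and its groups overlapped. The GTPases therefore held values on both sides of 0, with Irgm2 at a log2 difference of 0.01 and Igtp at -0.13.

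None of the classical antiviral effectors passed the test in B1b cells, and their intervals were wide where counts were few. Isg15, the ubiquitin-like modifier, stood at 3.49, 2.33 and 2.67 CPM in wild-type and at 3.00, 0.143 and 1.73 CPM in cre B1b cells, and the value of cre replicate 2 is a single count. Its log2 difference of -0.78 had a 95% interval from -2.09 to 0.54, and leaving out cre replicate 2 gave -0.28 and cre replicate 1 gave -1.48. The 4 IFIT genes ran from -0.22 to 0.16 on the log2 scale, and the 5 tested genes of the synthetase family from -0.24 to 0.25. The ISGF3 components had narrow intervals, with Stat2 at 160, 163 and 166 CPM in wild type and 169, 165 and 163 CPM in cre, and with log2 differences of 0.03 for Stat2 and -0.00 for Irf9 (SE 0.08 each).

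Most tested markers of another cell type had higher values in cre in the same libraries. The summed level of 11 macrophage and monocyte markers was 124, 195 and 268 CPM in wild-type and 352, 401 and 349 CPM in cre B1b cells, so the groups did not overlap. Of the 10 that could be tested 8 had a log2 difference above 0, and 2, Timd4 and Adgre1, lay below 0. Lyz1 and Csf1r were called higher in cre, and no marker of the list was at 0 counts in a whole group. The part of these markers in the values of Trim30a, Ifi47 and Irgm1 was not tested.

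In aortas no member passed the test between genotypes either. All 35 were tested and 0 were called, where 0.0150% of all 13364 tested genes were (edgeR quasi-likelihood test). Unadjusted p-values under 0.05 were found for 4 members, against 12.6% of all genes, and DESeq2 and limma-voom called 0 members. The groups of no member were free of overlap, against 2.92% of all genes. The median log2 difference was -0.13, with 24 of the 35 members below 0, against a median of 0.00 and 49.8% of all genes below 0.

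That shift moved with single libraries. Without wild-type aorta replicate 1 the members' median was 0.03, with 20 of the 35 above 0. Without cre replicate 3 it was -0.05, and without wild-type replicate 2 it was -0.22. Wild-type replicate 1 was the highest of the 10 aortas for 17 of the 35 members (48.6%), while it was the highest for 6.35% of all tested genes. Cre replicate 3 was the lowest for 15 members (42.9%), against 13.3% of all genes, wild-type replicate 5 for 9 members (25.7%), against 18.1%, and wild-type replicate 2 for 7 members, against 9.03%. These counts of highest and lowest aortas, and the means that follow, use TMM scaling over the 10 aortas alone. The members' mean of log2(CPM + 1) was 5.54, 4.65, 5.21, 5.02 and 4.79 in wild-type aortas and 5.04, 5.04, 4.62, 5.21 and 4.90 in cre aortas. The spread among wild-type aortas thus enclosed all 5 cre aortas but replicate 3, which lay just below it.

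**Figure D3:**
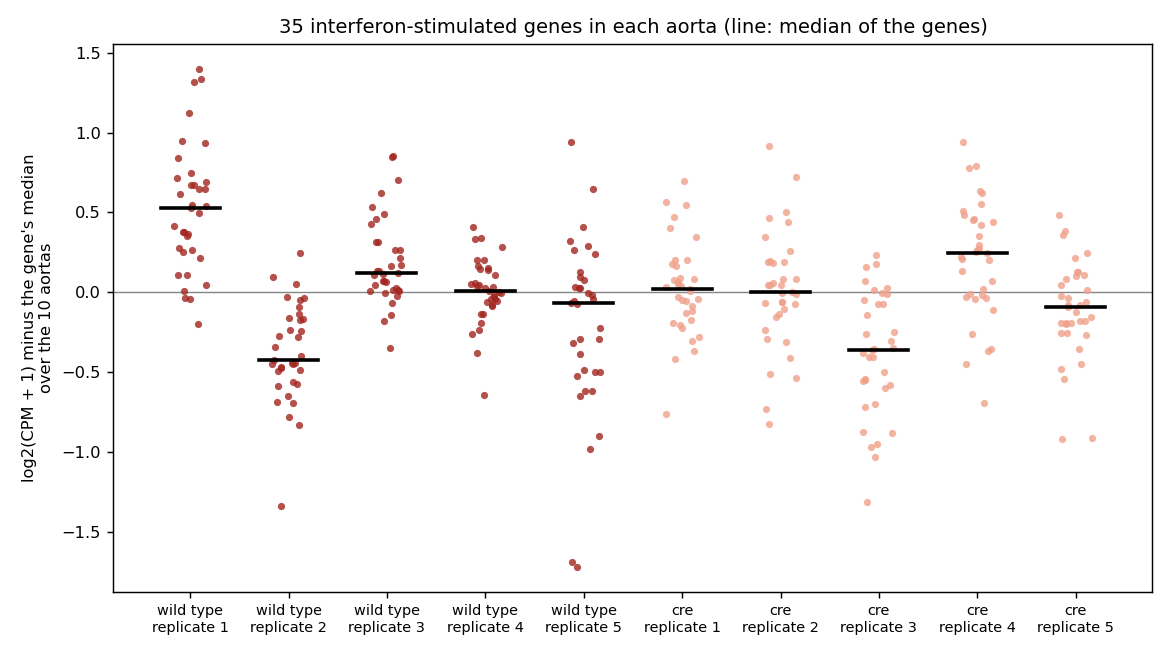
Each point is 1 of the 35 genes in 1 aorta, as log2(CPM + 1) minus that gene's median over the 10 aortas (y axis), with the 5 wild-type libraries at left and the 5 cre libraries at right; the black line is the median of the genes. Wild-type replicate 1 stands highest, wild-type replicate 2 and cre replicate 3 lowest.

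The immunity-related GTPases were among the members that were highest in this library. Iigp1, an effector GTPase that coats vacuoles of intracellular parasites, stood at 145, 56.2, 56.8, 58.7 and 47.0 CPM in wild-type aortas and at 60.9, 65.6, 47.9, 79.8 and 50.9 CPM in cre aortas. Igtp stood at 75.3, 25.4, 25.2, 26.4 and 30.7 CPM in wild-type and at 25.7, 25.9, 31.3, 48.7 and 29.6 CPM in cre aortas. Wild-type replicate 1 was the highest in both genes and cre replicate 4 the next, while the other aortas lay close together. The log2 difference, cre minus wild type, was -0.26 for Iigp1 with all aortas (SE 0.29) and 0.15 without wild-type replicate 1, and for Igtp -0.17 (SE 0.32) and 0.28. All 5 GTPases had a value below 0 with all aortas, as 49.8% of all genes did, and all 5 had a value above 0, from 0.08 to 0.28, without wild-type replicate 1.

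The same library was also the highest for Cxcl10, an interferon-induced chemokine that attracts T cells and is not a member. It stood at 22.3 CPM there and at 2.11 to 14.3 CPM in the other 9 aortas. The summed level of 5 T cell markers was 54.7 CPM in wild-type replicate 1, 20.8 to 31.9 CPM in the other wild-type aortas and 22.3 to 39.7 CPM in cre aortas. The summed level of 11 macrophage markers was 2936 CPM in it, inside the range of 1924 to 5031 CPM over all aortas, and no macrophage or T cell marker was at 0 counts in a whole group of aortas. The part of these cells in the members' levels was not tested. In bulk tissue, fewer cells of a type and less RNA per cell cannot be told apart.

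The 4 members with an unadjusted p under 0.05 in aortas lay on both sides of 0. Ifi27l2a stood at 153, 68.8, 184, 149 and 167 CPM in wild-type and at 284, 210, 159, 272 and 228 CPM in cre aortas, a log2 difference of 0.68 (SE 0.23, edgeR adjusted p = 0.284). Oasl1, which limits the translation of Irf7, stood at 10.7, 7.06, 11.2, 9.93 and 2.64 CPM in wild-type and at 15.7, 21.7, 11.6, 16.1 and 10.8 CPM in cre aortas, a log2 difference of 0.79 (SE 0.32, adjusted p = 0.335). In both genes each wild-type aorta lay below at least 4 of the 5 cre aortas, yet the ranges overlapped. Ifit2 had a log2 difference of -0.50 (SE 0.23, adjusted p = 0.393) and Ifi44, an interferon-induced antiproliferative gene, of -0.60 (SE 0.27, adjusted p = 0.379). Heart muscle markers, summed over 5 genes, ran from 352 to 1654 CPM in wild-type and from 443 to 3858 CPM in cre aortas. These sums overlapped, but for 3 of the 5 genes all cre aortas lay above all wild-type ones. Groups were free of overlap in either direction for 2.92% of all genes. The median log2 difference of the 5 markers was 3.24, and 0 were called. The part of these markers in the members' values was not tested.

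**Figure D4:**
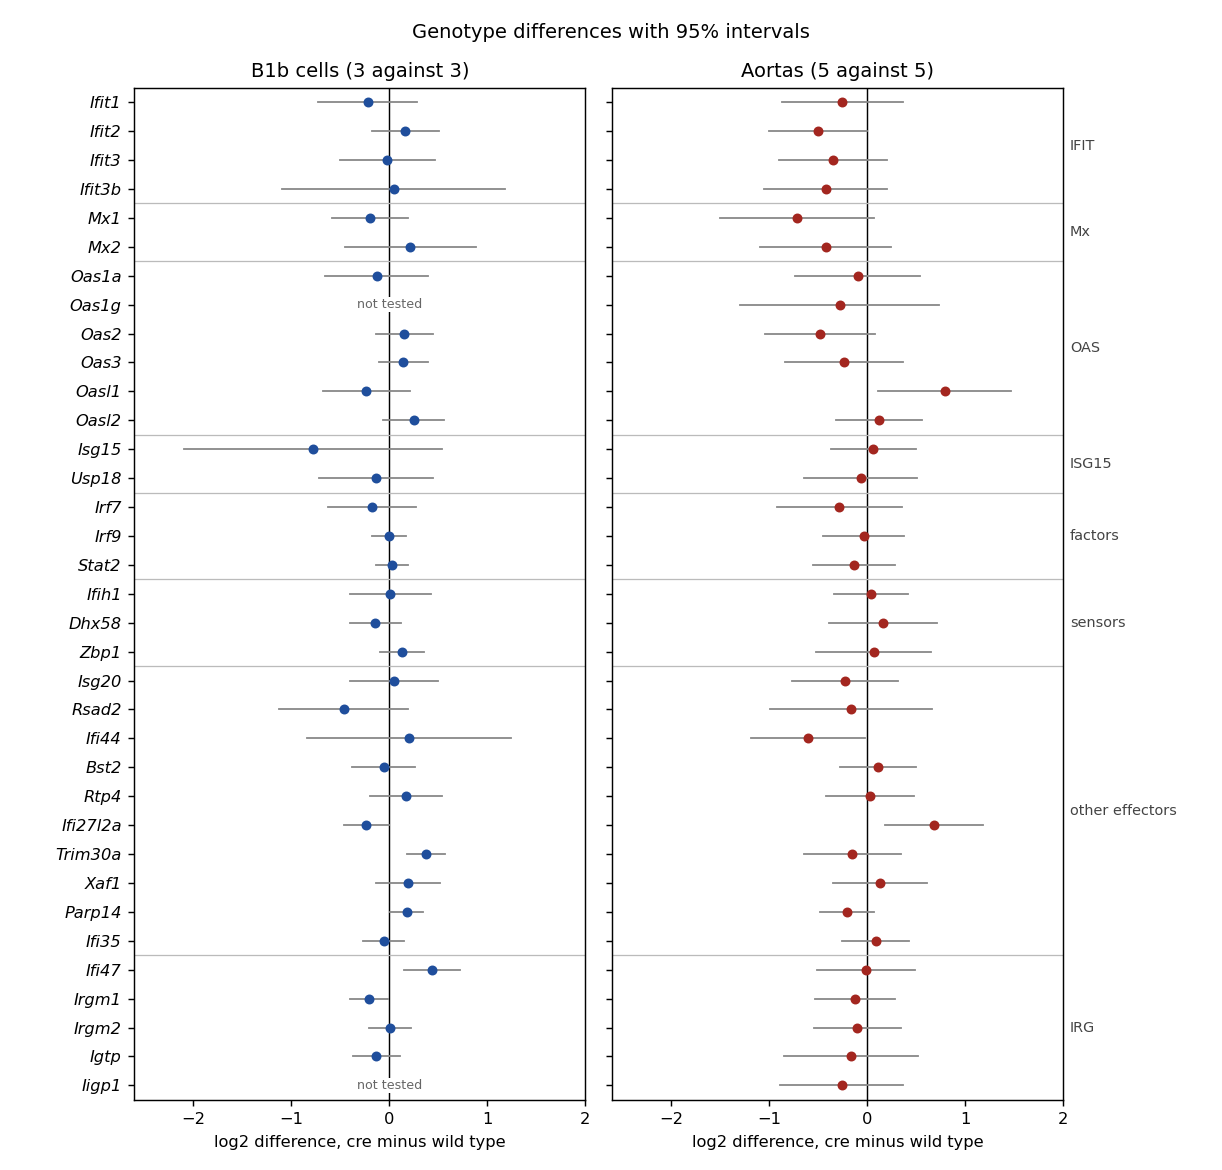
Log2 difference between cre and wild type (x axis) for each of the 35 genes, with its 95% interval as a bar, in B1b cells (left, 3 against 3 libraries) and aortas (right, 5 against 5). Oas1g and Iigp1 were too low in B1b cells to test. No gene passed the threshold in either tissue, Trim30a and Ifi47 lie farthest above 0 at left relative to their intervals, and the 5 GTPases lie just below 0 at right, where they lie above 0 without wild-type replicate 1.

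A genotype difference that itself differed between the tissues was found for 0 of the 35 members, where 0.0199% of all 15091 tested genes were called (edgeR interaction term over all 16 libraries). Unadjusted p-values under 0.05 were found for 2 members, Ifi27l2a and Oasl1, against 11.1% of all genes, and DESeq2 and limma-voom called 0 members. The difference between the 2 log2 differences, B1b cells minus aortas, was -0.92 for Ifi27l2a (SE 0.34, adjusted p = 0.340) and -1.02 for Oasl1 (SE 0.45, adjusted p = 0.410).

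Between tissues the members differed in both directions. In wild type 28 of 35 were called, 10 higher in B1b cells and 18 higher in aortas (edgeR quasi-likelihood test), and among all 14339 tested genes 75.9% were called, 35.4% higher in B1b cells and 40.4% higher in aortas. Iigp1 and Oas1g are in these counts, although they were too low to test within B1b cells. The members' median log2 difference, B1b cells minus aortas, was -0.73 against -0.09 over all genes. Sorted cells and frozen whole tissue also differ in how they were collected, and tissue and collection cannot be told apart.

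All 4 IFIT genes were higher in wild-type aortas. Ifit1 stood at 13.5, 8.17 and 11.1 CPM in B1b cells and at 44.7, 27.1, 31.7, 34.0 and 38.6 CPM in aortas, which was 3.21-fold higher in aortas (log2 difference -1.68, SE 0.22, adjusted p = 1.74e-05). Ifit3, Ifit3b and Ifit2 had log2 differences of -1.88, -2.23 and -0.88. Ifit3 and Ifit3b are near-identical copies, and how reads were divided between them is uncertain. Among cre libraries Ifit1, Ifit3 and Ifit3b were called again, while the log2 difference of Ifit2 was -0.16 (adjusted p = 0.604).

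The ISG15 system was also higher in aortas. Isg15 stood at 17.6, 12.8, 13.6, 18.0 and 18.5 CPM in wild-type aortas against 2.33 to 3.49 CPM in wild-type B1b cells, 5.65-fold higher (log2 difference -2.50, SE 0.27, adjusted p = 2.67e-06). Usp18, the protease that removes ISG15 and dampens receptor signalling, was 2.25-fold higher in aortas (log2 difference -1.17, SE 0.23, adjusted p = 0.000529). Both genes were called in the same direction in the cre libraries.

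The synthetase family was split. Oas3 was 2.72-fold higher in B1b cells, at 41.0, 44.9 and 46.3 CPM against 25.4, 8.16, 18.6, 12.8 and 15.9 CPM in aortas (log2 difference 1.45, SE 0.26, adjusted p = 0.000295). Oasl2, at 30.8, 52.0 and 40.6 CPM in B1b cells and 58.4 to 110 CPM in aortas, was 2.11-fold higher in aortas. Oas1g had 11 counts in all wild-type B1b libraries together and 1.06 to 7.84 CPM in wild-type aortas, and it passed the filter on low counts only through the aortas. Oas1a was higher in aortas with groups that overlapped (adjusted p = 0.0348). Their reads are hard to tell apart, since the copies are near-identical. Oas2 was not called (log2 difference -0.48, adjusted p = 0.0881). Oasl1 was higher in wild-type B1b cells (log2 difference 0.79, adjusted p = 0.0315), and not called among cre libraries, where the log2 difference was -0.15. The call of Oasl1 was lost without any 1 of the 3 wild-type B1b libraries or without wild-type aorta replicate 2, and under DESeq2's size factors, upper-quartile scaling or summed transcript rows, and that of Oas1a without B1b replicate 2 or 3 or aorta replicate 1 or 3.

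The transcription factors went in opposite directions. Irf9 stood at 162, 175 and 165 CPM in wild-type B1b cells and at 56.0 to 76.2 CPM in wild-type aortas, 2.49-fold higher in B1b cells (log2 difference 1.32, SE 0.13, adjusted p = 1.16e-06). Stat2 was 1.61-fold higher in B1b cells (log2 difference 0.69, adjusted p = 0.00690). Irf7, the interferon-induced factor that amplifies type I interferon production, stood at 22.4, 18.9 and 13.1 CPM in B1b cells and at 130, 43.0, 85.8, 64.8 and 38.1 CPM in aortas, 4.04-fold higher in aortas (log2 difference -2.01, SE 0.39, adjusted p = 0.000715). All 3 calls had the same direction in the cre libraries.

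The nucleic acid sensors were split in the same manner. Dhx58, which encodes the regulatory RNA sensor LGP2, stood at 44.5, 40.3 and 42.5 CPM in B1b cells and at 6.87 to 21.6 CPM in aortas (log2 difference 1.54, SE 0.25, adjusted p = 9.46e-05). Zbp1, a sensor of Z-form nucleic acid that can trigger cell death, had a log2 difference of 0.97 (adjusted p = 0.00335). Ifih1, which encodes the RNA sensor MDA5, was 2.19-fold higher in aortas (log2 difference -1.13, SE 0.19, adjusted p = 0.000126).

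Of the 10 other effectors 3 were higher in wild-type B1b cells and 5 in wild-type aortas. Trim30a was 3.40-fold higher in B1b cells (log2 difference 1.76, SE 0.15, adjusted p = 2.64e-07), with aortas at 44.98 to 74.4 CPM. Parp14 was 2.42-fold higher and Ifi35, which encodes an interferon-induced leucine-zipper protein, 1.71-fold higher in B1b cells. Rsad2, the gene of the antiviral enzyme viperin, stood at 14.0, 11.2 and 7.67 CPM in B1b cells and at 55.4, 23.4, 42.9, 26.8 and 82.5 CPM in aortas, 4.14-fold higher in aortas (log2 difference -2.05, SE 0.41, adjusted p = 0.000779). Ifi44 was 7.57-fold, Bst2, which tethers budding virus, 2.60-fold and Rtp4 2.22-fold higher in aortas. Ifi27l2a was 1.66-fold higher in aortas with groups that overlapped (adjusted p = 0.0187), and that call was lost without wild-type B1b replicate 2. Isg20, an antiviral exonuclease, and Xaf1, a proapoptotic gene, were not called in wild type or in cre. Of the Mx genes, which encode dynamin-like antiviral GTPases, Mx2 had a log2 difference of -0.76 in wild type (adjusted p = 0.0194) and -0.06 in cre (adjusted p = 0.909), and Mx1 was not called in either. The wild-type call of Mx2 was lost without wild-type B1b replicate 2 and in a model of all 16 libraries.

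The immunity-related GTPases differed widely among themselves, with log2 differences from -6.93 to 0.73. Iigp1 had 14 counts over all 3 wild-type B1b libraries, at 1.21, 0.259 and 0.333 CPM, and stood at 47.0 to 145 CPM in wild-type aortas. It passed the filter on low counts only through the aortas, so a difference was bound to be found. The fitted log2 difference of -6.93 rests on those few B1b counts and ran from -7.84 without wild-type B1b replicate 1 to -6.52 without wild-type aorta replicate 1. Irgm1, by contrast, was 1.66-fold higher in wild-type B1b cells (log2 difference 0.73, SE 0.19, adjusted p = 0.00347), with the aortas at 45.4 to 91.25 CPM and all below the B1b cells. Irgm2, at 63.6, 57.3 and 66.8 CPM in B1b cells and 44.8 to 98.4 CPM in aortas, was not called, with a log2 difference of -0.07 (95% interval from -0.52 to 0.37). Igtp and Ifi47 were not called in wild type, with log2 differences of 0.35 and 0.44. Ifi47 was called higher in B1b cells among cre libraries (log2 difference 0.94, adjusted p = 0.00229).

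The cre libraries, which share no sample with the wild-type ones, gave 26 calls, 10 higher in B1b cells and 16 higher in aortas. Of all 14408 tested genes 74.0% were called, 33.8% higher in B1b cells and 40.2% higher in aortas. The same 25 genes, Iigp1 and Oas1g included, were called in the same direction in both genotypes, 9 of them higher in B1b cells and 16 in aortas. These are 89.3% of the wild-type and 96.2% of the cre calls, against 88.2% and 89.9% over all genes. No member was called in opposite directions. Among cre libraries the call of Oas1g was lost without B1b replicate 2, and that of Oas1a without B1b replicate 1 or 3 or aorta replicate 1 or 5, with no filter on low counts or with summed transcript rows. The members' median log2 difference among cre libraries was -0.16, against -0.12 over all genes. Without cre B1b replicate 1 these were -0.50 and -0.26.

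**Figure D5:**
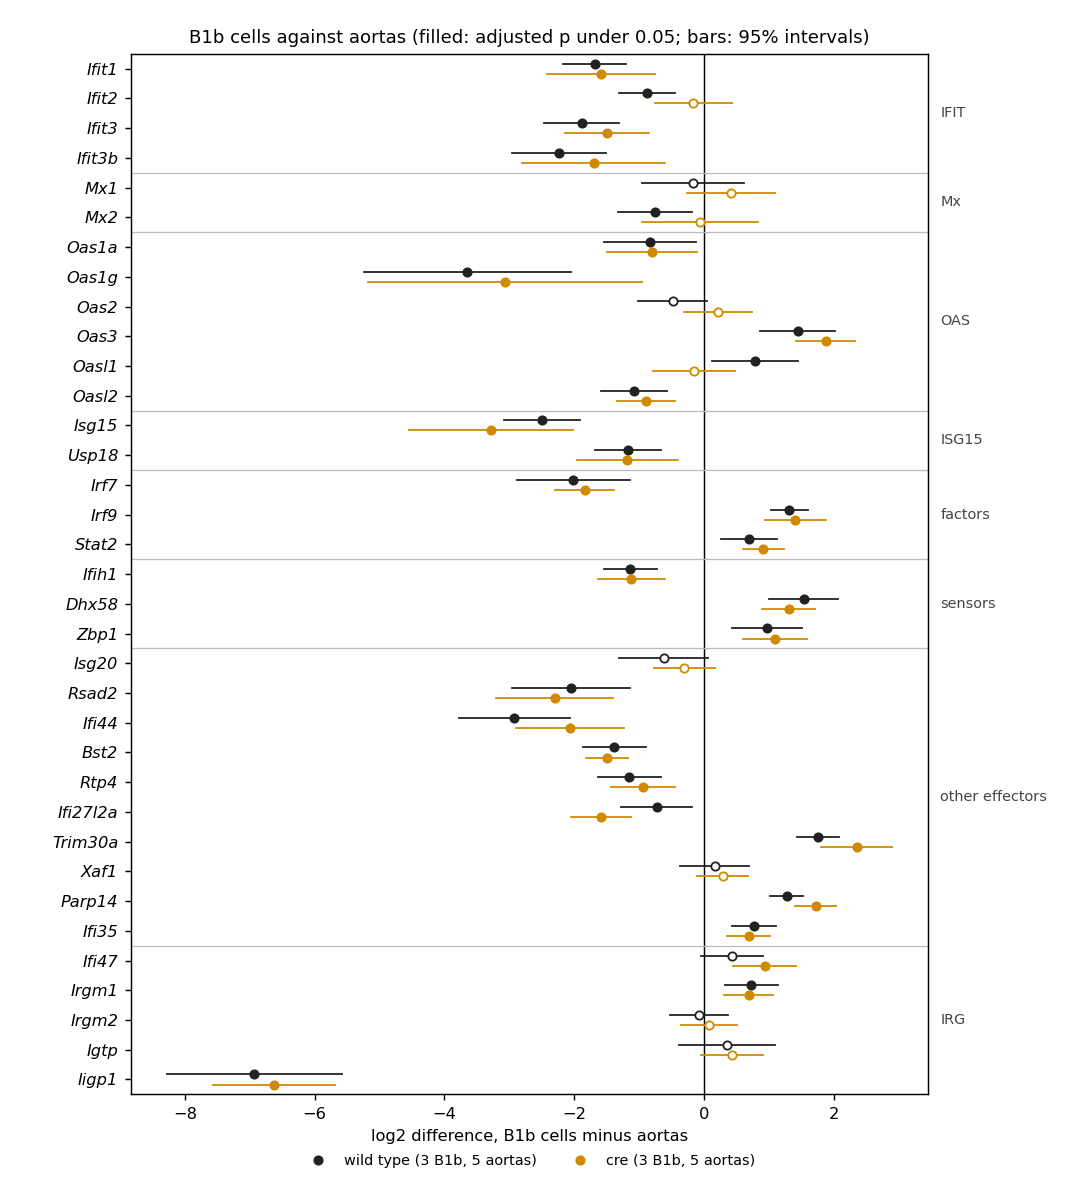
Log2 difference between B1b cells and aortas (x axis, positive where higher in B1b cells) for each of the 35 genes, in wild-type libraries (black) and cre libraries (orange), with 95% intervals; filled points passed the threshold and open points did not. Iigp1 lies farthest to the left in both genotypes, and Trim30a farthest to the right.

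The rest of the pathway was read from 86 further genes in 6 lists. Of the 11 interferon genes searched, 7 (Ifnb1, Ifna1, Ifna2, Ifna4, Ifna5, Ifne and Ifnl3) had 0 counts in all 16 libraries, and all 11 together had 10 counts. Ifng, the gene of interferon gamma, had 6 of these counts, all in aortas. A count of 0 allows a level of up to 0.303 to 1.82 CPM per library, set at 3 counts, an error of counting only. None of the ligands could be tested. Of the interferon alpha family only Ifna1, Ifna2, Ifna4 and Ifna5 were searched, so these counts do not cover type I interferons as a class.

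Of these further genes 73 could be tested between wild-type tissues, and 44 were higher in B1b cells and 16 in aortas, where 35.4% and 40.4% of all genes were. Their median log2 difference was 0.91, against -0.09 over all genes. Ifnar1 stood at 153 ± 6.89 CPM in wild-type B1b cells (SD, n = 3) and Ifnar2 at 43.0 ± 1.51 CPM, and in the comparison with wild-type aortas Ifnar1 was higher in B1b cells (log2 difference 0.46, adjusted p = 0.00415) and Ifnar2 lower (log2 difference -1.13). Ifngr1 and Ifngr2 were both lower in B1b cells, with log2 differences of -0.61 and -0.44. The kinases Jak1 and Tyk2 were higher in B1b cells (log2 differences 1.87 and 1.24). The interferon regulatory factors Irf1, Irf3 and Irf8 were higher in B1b cells, with log2 differences of 1.32, 0.91 and 1.76. In the list of further interferon-induced genes 40 could be tested, and 23 were higher in B1b cells and 9 in aortas, with a median log2 difference of 0.94. Among the 9, Apol9a and Apol9b had 0 counts in every wild-type B1b library, and Ifitm1 had 7, 4 and 0. These genes and Cxcl10 passed the filter on low counts only through the aortas, so a difference was bound to be found. They are also among the 16. Of the 23, Gvin1, Ifi213 and Ifit1bl1 had 3 to 19 counts in each wild-type aorta, so their differences rest on few aorta counts. All of them are also among the 44. Cxcl10 had 0, 1 and 6 counts in wild-type B1b cells, too few for a fold. Socs1, which inhibits the kinases, was not called (adjusted p = 0.350).

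Between genotypes 0 of these further genes were called by edgeR in either tissue with all libraries and the filter on low counts. In B1b cells 69 were tested with a median log2 difference of 0.03, 12 had an unadjusted p under 0.05, against 13.3% of all genes, DESeq2 called 2 and limma-voom 0. The 2 were Ifitm3, whose product blocks viral fusion, and Ifi203, a DNA-binding gene of a family of close copies whose reads may be shared. Ifitm3 stood at 3.49, 6.49 and 9.67 CPM in wild-type and at 13.1, 17.6 and 12.7 CPM in cre B1b cells (log2 difference 1.14, SE 0.29, edgeR adjusted p = 0.0812), beside the macrophage marker levels of the same libraries. Ifi203 stood at 535, 629 and 669 CPM in wild-type and at 774, 781 and 712 CPM in cre (log2 difference 0.32, SE 0.08, edgeR adjusted p = 0.0812). Neither pair of groups overlapped, and edgeR called both without wild-type replicate 3. In aortas 68 were tested with a median of -0.09, 2 had an unadjusted p under 0.05, against 12.6% of all genes, and DESeq2 and limma-voom called 0.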

How the data were processed

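Aortas were frozen and lysed in TRIzol and B1b cells were sorted before the same lysis, and libraries were made with a KAPA mRNA kit, per the labels' protocols. The submitters' processing notes name CASAVA 1.8.2, STAR 2.5.2b and mm10. No source here names the counting tool, its annotation or whether it used strand, so overlapping and antisense genes cannot be told apart. The authors deposited whole read counts for each RefSeq transcript, without normalization. Of 35745 rows, 35440 were named through the RefSeq gene table, 188 through GENCODE and 117 had no name. Rows with no name held 0.416% to 4.17% of a library's counts and stayed in as entries of their own. Transcripts of 1 gene share reads, so the row of highest total was kept.

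Groups follow the genotype and cell type labels. Replicate numbers follow sample order and pair nothing. Each comparison was fitted on the whole table with edgeR 4.0.16 in R 4.3.3 (TMM, filterByExpr, robust quasi-likelihood F test), with Benjamini-Hochberg adjustment over all genes tested and a threshold of 0.05. Alternatives used other scalings, filters and transcript rows, DESeq2 1.42.0, limma 3.58.1 (voom) and fits without single libraries. The scripts were tested on simulated data. The precision of each value is set by its count and the number of libraries. The members, the gene lists and the comparisons were chosen with earlier results of these data known. By the rule for naming, all members may be named, with a fixed set of pathway genes and others only in counts of 5 or fewer. Promoter sequences are those of RefSeq (GRCm38.p6). Some genes are not reported here.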

Additional observations from a re-analysis of the deposited data

Results flagged for a closer look

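In groups of 5 aortas, a library was marked where its distance to the nearest other one exceeded 71% of the group's range. Chance marks about 1 group in 20, and 6 of the 70 member and group pairs were marked. Wild-type aorta replicate 1 was the high value in 3 of them, with Iigp1 at 145 CPM (next 58.7 CPM), Igtp at 75.3 CPM (next 30.7 CPM) and Irgm1 at 91.25 CPM (next 56.0 CPM). Cre aorta replicate 4 was the high value in the other 3, with Ifit2 at 53.5 CPM (next 29.4 CPM), Usp18 at 27.6 CPM (next 13.6 CPM) and Igtp at 48.7 CPM (next 31.3 CPM). The members share libraries, so these marks are not independent. No genotype difference of a member passed the test of a difference between tissues.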

How the results depend on the processing

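No paired analysis was possible because nothing in the labels says which libraries belong together, and the replicate numbers used here follow sample order. In B1b cells, the 0 members called higher in cre became 2 with no filter on low counts (Trim30a and Ifi47), 1 with DESeq2, 1 with the transcript row of lowest total, and 0 to 1 when single libraries were left out. No member was called in aortas, or for the interaction, under any of 20 and 24 alternatives. Between wild-type tissues, 24 of the 28 calls held under all 18 alternatives, and the exceptions were Ifi27l2a, Mx2, Oas1a and Oasl1. Between cre tissues, 24 of 26 held, and the exceptions were Oas1a and Oas1g. No called value reversed. Between cre tissues the median log2 difference of all genes moved from -0.12 to -0.26 with DESeq2's size factors, and that of the members from -0.16 to -0.30. The members' median there ran from -0.50 without cre B1b replicate 1 to -0.07 with no filter. Between wild-type tissues the members' median stayed between -0.87 and -0.62. Of the further pathway genes edgeR called 4 in B1b cells with no filter (Ifi203, Ifitm3, Socs3 and Trim34a), and 0 to 2 without single libraries. Over all genes, the 83 calls in B1b cells became 327 with no filter, 174 with DESeq2, 11 with summed transcript rows and 35 to 103 without single libraries. The 2 calls in aortas became 237 with DESeq2, 92 without the aortas under 2000000 counts, 9 with quality weights, 1 with limma-voom, 1 with the row of lowest total and 0 to 14 without single libraries. The 3 interaction calls became 170 with DESeq2 and 1 to 7 without single libraries. The cause of these changes was not tested.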

Other observations

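The transcript row chosen for a gene mattered for 1 of the members by a large step. Ifi27l2a has 2 rows, with 13140 and 3035 counts in all libraries, and the wild-type log2 difference between B1b cells and aortas was -0.73 with the row of highest total and -0.19 with the other, which was not called.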
